A study of Mus musculus with 16 samples.

Results

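The 8 genes described here encode the enzymes that write, copy and remove DNA methylation, with the protein that guides the copying step: *Dnmt1*, *Uhrf1*, *Dnmt3a*, *Dnmt3b*, *Tet1*, *Tet2*, *Tet3* and *Tdg*. They were picked by name, as the rows of the read-count table that map to these symbols, and they are 8 of its 55416 genes. Erythroblasts of E13.5 mouse foetal liver were sorted on Ter119 and CD71 into an earlier (S1) and a later (S3) population for RNA sequencing. All embryos came from a constitutive *Nprl3* knockout line in which the promoter of *Nprl3*, a subunit of the GATOR1 inhibitor of mTORC1, is deleted while the α-globin enhancers that lie within the gene are kept. The groups were wild type (WT, 4 embryos), heterozygous (Het, 2 embryos) and *Nprl3*-/- (KO, 2 embryos). Each embryo gave 1 library at either stage, which makes 16 in all, and values of a group are given in the order of embryo number (WT 0, 1, 5 and 8, Het 3 and 4, KO 2 and 9). Both Het embryos were male, and the WT and KO groups each held as many males as females. Every cell of a KO embryo carried the deletion, so differences between genotypes need not arise within erythroblasts.

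Methylation of CpG sites is copied after each round of DNA replication by Dnmt1, which Uhrf1 recruits to hemimethylated DNA. Dnmt3a and Dnmt3b place methylation at sites that had none, whereas the Tet dioxygenases oxidise 5-methylcytosine and Tdg excises the most oxidised forms, which base excision repair then replaces with cytosine. Erythroblasts are known for a loss of DNA methylation across the genome as they mature and divide rapidly. Only RNA was measured here, neither the proteins nor methylation.

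The libraries held between 20666044 and 37609502 counted read pairs. The sample titles and sort protocol name foetal liver erythroblasts, whereas other label fields name an embryonic stem cell line. The 5 embryonic stem cell markers listed (*Pou5f1*, *Nanog*, *Sox2*, *Zfp42* and *Dppa5a*) summed to at most 0.102 CPM (counts of a gene per 1000000 scaled counts of its library) in any library, and *Sox2*, *Zfp42* and *Dppa5a* were at 0 in all 16. All 8 erythroid markers were detected, and their summed level rose from between 1477 and 2736 CPM at S1 to between 27070 and 40570 CPM at S3. In the targeted gene, *Nprl3*, S1 levels were 22.6 to 32.6 CPM in WT, 12.65 to 12.98 CPM in Het, and 0.319 to 0.676 CPM in KO. At S3 the KO libraries held 107 to 111 CPM of *Nprl3*, against 146 to 204 CPM in WT and 118 to 146 CPM in Het, so the KO lay below WT at both stages but was near 0 only at S1. The α-globin enhancers within the gene are known to give rise to spliced, polyadenylated transcripts, and counts per gene cannot tell these from transcripts of the deleted promoter.

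One property of these libraries bears on every comparison of stages. Globin transcripts took 0.0738% to 1.07% of counts at S1 and 10% to 11.8% at S3, and the factors that scale the libraries to a common centre (TMM, trimmed mean of M values) were 1.29 to 1.51 at S1 and 0.691 to 0.813 at S3. With TMM the median log2 fold change of S3 over S1 across the 13391 genes tested in WT was -0.13, and with library totals alone it was -1.10. With TMM 3949 genes were called higher and 4782 lower, and with totals alone 1858 and 8475. TMM with the globin genes left out of the scaling gave a median of -0.126, with 3952 genes higher and 4781 lower. Levels below are CPM scaled with TMM unless another scale is named, and each stage change is given relative to the median gene as well. In bulk RNA, fewer cells of a type and less RNA per cell cannot be told apart.

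The levels of the 8 genes spanned nearly 3 orders of magnitude at S1. Per kilobase of annotated exon (RPKM, from TMM-scaled counts), *Uhrf1* stood first in WT S1 at 73.4 ± 19.9 (SD, n = 4), followed by *Tdg* at 22.2 ± 5.16 and *Dnmt1* at 17.7 ± 5.72, whose ranges overlapped. *Dnmt3b* came next at 6.17 ± 0.915 RPKM. *Dnmt3a* at 1.12 ± 0.135 and *Tet3* at 1.09 ± 0.256 RPKM did not differ beyond their spread, and *Tet2* at 0.312 ± 0.0805 and *Tet1* at 0.0881 ± 0.0426 RPKM were lowest. At WT S3 the order was *Uhrf1* (122 ± 10.3 RPKM), *Dnmt1* (27.3 ± 4.67), *Tdg* (11.8 ± 1.24) and *Tet3* (1.33 ± 0.0451), with no overlap between neighbours. Below them *Dnmt3a* (0.140 ± 0.0387 RPKM), *Dnmt3b* (0.122 ± 0.0984) and *Tet2* (0.0440 ± 0.0254) overlapped in turn, and *Tet1* was close to 0. The mean of *Dnmt1* stood above that of *Tdg* at S3 in all 3 genotypes and below it at S1 in all 3. Exon length was taken over all annotated exons of a gene, so genes with long untranslated or alternative exons, such as *Dnmt3a*, have low values on this scale.

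The start regions of 4 of the genes are shown because they include the pair whose stage change in WT lay furthest above that of the median gene, *Dnmt1* and *Uhrf1*, and the pair with the deepest fall, *Dnmt3b* and *Tet1*. Each run covers 250 bases before and 50 bases from the annotated start of the canonical transcript in GRCm39, read 5′ to 3′ on the strand of the gene, and capitals mark the CpG sites, the substrate of these enzymes. *Dnmt1* lies at chr9:20864226-20864525 on the minus strand, *Uhrf1* at chr17:56610025-56610324 on the plus strand, *Dnmt3b* at chr2:153491073-153491372 on the plus strand and *Tet1* at chr10:62715744-62716043 on the minus strand. The last 50 bases of the *Tet1* window open with ATG, and the annotated gene extends upstream to chr10:62744775. This window thus lies inside the gene and may hold no promoter.
Dnmt1: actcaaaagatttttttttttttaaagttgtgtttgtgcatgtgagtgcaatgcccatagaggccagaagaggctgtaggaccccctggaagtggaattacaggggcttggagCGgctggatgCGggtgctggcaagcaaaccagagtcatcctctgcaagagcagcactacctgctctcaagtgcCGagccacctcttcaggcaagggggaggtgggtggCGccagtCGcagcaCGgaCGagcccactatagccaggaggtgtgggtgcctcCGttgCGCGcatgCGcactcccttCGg
Uhrf1: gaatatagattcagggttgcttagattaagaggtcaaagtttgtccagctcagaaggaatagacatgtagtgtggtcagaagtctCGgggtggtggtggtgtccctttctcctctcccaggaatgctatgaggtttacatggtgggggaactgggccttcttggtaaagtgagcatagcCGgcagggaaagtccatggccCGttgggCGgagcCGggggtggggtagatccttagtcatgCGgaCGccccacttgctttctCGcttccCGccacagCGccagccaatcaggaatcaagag
Dnmt3b: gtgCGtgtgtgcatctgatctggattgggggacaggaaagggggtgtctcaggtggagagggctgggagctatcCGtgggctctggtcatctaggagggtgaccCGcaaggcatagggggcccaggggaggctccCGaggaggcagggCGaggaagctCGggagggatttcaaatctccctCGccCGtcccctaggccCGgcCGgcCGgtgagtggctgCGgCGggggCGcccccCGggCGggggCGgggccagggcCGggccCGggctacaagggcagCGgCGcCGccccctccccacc
Tet1: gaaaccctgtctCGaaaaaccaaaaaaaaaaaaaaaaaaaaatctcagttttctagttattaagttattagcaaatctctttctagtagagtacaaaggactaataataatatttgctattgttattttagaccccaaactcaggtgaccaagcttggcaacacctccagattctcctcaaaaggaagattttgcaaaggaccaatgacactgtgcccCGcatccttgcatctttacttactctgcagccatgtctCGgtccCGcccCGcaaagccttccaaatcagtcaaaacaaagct

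These 300-base windows held 12 CpG sites in *Dnmt1*, 10 in *Uhrf1*, 22 in *Dnmt3b* and 5 in *Tet1*, beside a median of 11 over 21757 protein-coding start regions. The *Tet1* values here are of a window inside the gene. The windows of *Dnmt3a* and *Tet3* held 46 each, more than 99.1% of start regions. *Tet2* held 20 and *Tdg* 17. None of the 8 windows held, on either strand, TTTCCCGC, TTTGGCGC, TTTCGCGC or TTTGCCGC, the forms of the E2F motif searched, which 2.82% of all start regions hold. None held the GATA forms AGATAA or TGATAA either, which 17.5% hold. GGGCGG, the GC box, was found in 6 of the 8, all but *Dnmt1* and *Tdg*, beside 42.5% of all start regions. For Klf1 only the strings CCACACCC, CCGCACCC and CCGCCCAC were searched, which 11.5% of all start regions hold, and none of the 8 windows held them. Other forms of the Klf1 site were not searched, so their absence from these windows was not shown. CCAAT was found once each in *Dnmt3b*, *Uhrf1*, *Tet1* and *Tdg*, beside 39.9% of all start regions. The 8 genes have between 5 and 19 annotated starts each, and counts per gene do not show which was used.

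Between S1 and S3 the writers of new methylation and 2 of the 3 oxidising enzymes fell to low levels, whereas the copying enzyme and its guide did not. In WT, 5 of the 8 genes passed the test as lower at S3 (*Dnmt3a*, *Dnmt3b*, *Tet1*, *Tet2* and *Tdg*), beside 35.7% of all genes tested, and 2 passed as higher (*Dnmt1* and *Uhrf1*), beside 29.5%. With library totals alone *Dnmt1* and *Uhrf1* turned to slightly lower and were not called. On that scale 6 of the 8 were called lower, the 5 falls and *Tet3* (-0.67, adjusted p = 0.00854), beside 63.3% of all genes, and 0 were called higher, beside 13.9%. In Het 5 were lower, beside 42.8% of genes, and 3 higher, beside 33.7%. With library totals none of those 3 was called, beside 64.2% of genes lower and 17.9% higher. In KO 5 were lower, beside 30.6%, and 2 higher (*Dnmt1* and *Uhrf1*), beside 22.9%. With library totals both higher KO values lost their call, *Dnmt1* at 0.05 (adjusted p = 0.847) and *Uhrf1* at -0.23 (adjusted p = 0.328), beside 53.5% of genes lower and 11.8% higher. Unless DESeq2 is named, p-values of fold changes came from the quasi-likelihood test of edgeR, adjusted over all genes by Benjamini-Hochberg, and the 3 comparisons use different embryos.

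**Figure D1:**
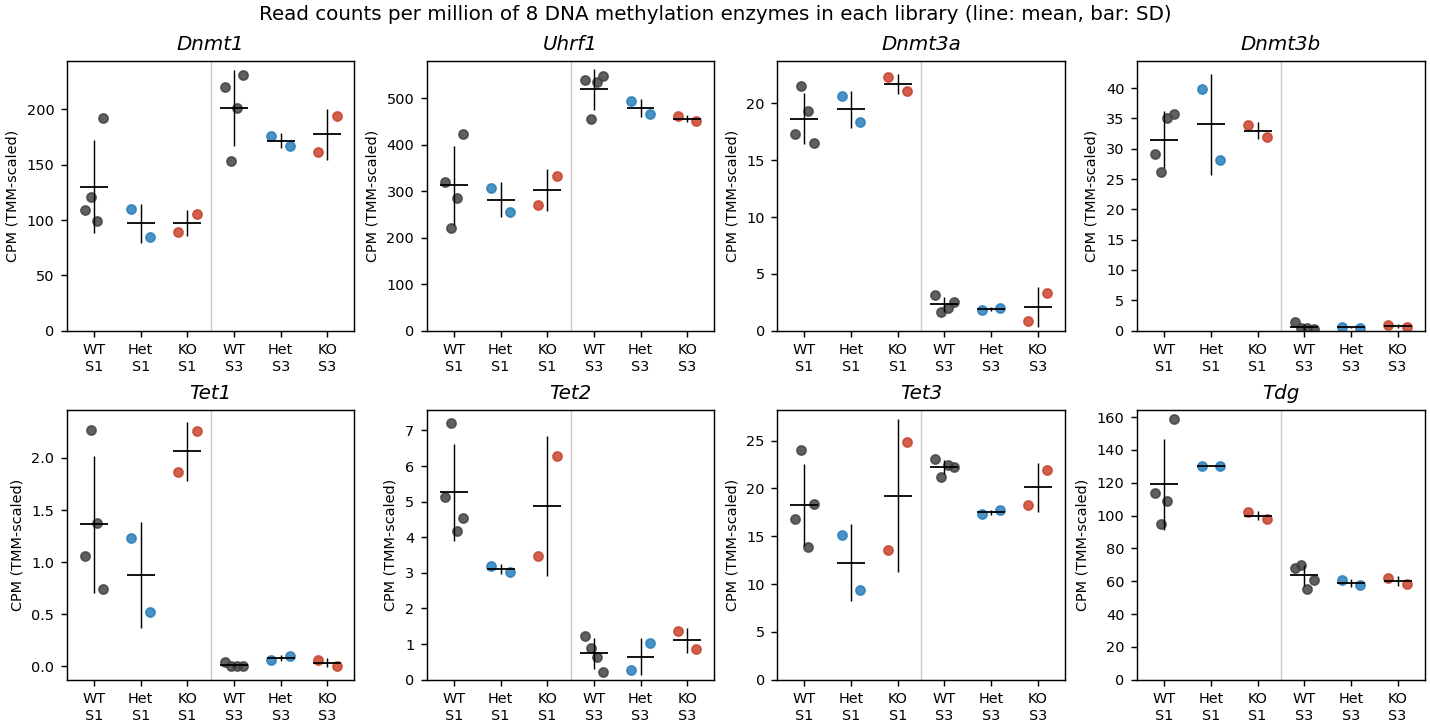
Each panel shows one gene, with TMM-scaled CPM on a linear vertical axis and the 6 groups of genotype and stage on the horizontal axis. Points are libraries, horizontal lines are group means and vertical lines are 1 SD; *Dnmt3a*, *Dnmt3b*, *Tet1*, *Tet2* and *Tdg* are lower in every S3 library than in any S1 library, and the higher S3 levels of *Dnmt1* and *Uhrf1* turn to slightly lower in WT when library totals replace TMM.

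*Dnmt3b* showed one of the deepest falls. Its raw counts in WT were 932, 1034, 1377 and 1738 at S1 in embryos 0, 1, 5 and 8, and 32, 11, 11 and 3 at S3. The S1 counts were 1907 and 979 in Het and 1385 and 1513 in KO, and the S3 counts were 11 and 10 in Het and 16 and 11 in KO. No S3 library came near any S1 library. The scaled level in WT fell from 31.5 ± 4.67 CPM to 0.624 ± 0.503 CPM (n = 4 each), a log2 fold change of -5.58 (SE 0.44, adjusted p = 2.32e-06), and without embryo 0 it was -6.35 (adjusted p = 2.07e-05). The log2 fold changes in Het and KO were -5.92 (SE 0.26) and -5.41 (SE 0.31). *Dnmt3c*, a close tandem copy of *Dnmt3b* known from male germ cells, was also counted, with 188 to 291 reads per library at S1 and 6 to 27 at S3. Reads that matched both copies were not counted, so the split between them is uncertain.

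*Dnmt3a* fell in every embryo as well. Its S1 levels in WT were 17.3, 21.5, 19.3 and 16.5 CPM, and its S3 levels were 3.13, 1.68, 1.95 and 2.55 CPM. In Het it stood at 20.6 and 18.3 CPM at S1 and 1.78 and 2.00 CPM at S3, and in KO at 22.3 and 21.1 CPM and then 0.863 and 3.31 CPM. Every S1 library lay above every S3 library. The log2 fold change was -2.98 in WT (SE 0.23, adjusted p = 2.34e-06), -3.36 in Het (SE 0.23) and -3.37 in KO (SE 0.56). Relative to the median gene, *Dnmt3a* and *Dnmt3b* lay at -2.85 and -5.45 in WT with TMM and at -2.84 and -5.44 with library totals.

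*Dnmt1*, the maintenance methyltransferase, had WT levels of 109, 121, 99.3 and 192 CPM at S1 and 220, 153, 202 and 231 CPM at S3, so the stages overlapped through the S1 library of embryo 8. In Het the levels were 110 and 84.4 CPM at S1 and 176 and 167 CPM at S3, and in KO 88.8 and 106 CPM and then 161 and 194 CPM, without overlap. The log2 fold change in WT was 0.64 (SE 0.25, adjusted p = 0.0426), with 8 of 8 embryos higher at S3 on this scale. Leaving out WT embryo 0 or 5 ended the call, with log2 fold changes of 0.50 and adjusted p of 0.185 in both fits. With library totals the WT value was -0.35, but its distance from the median gene was 0.76 with TMM and 0.75 with totals.

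*Uhrf1*, the protein that brings Dnmt1 to newly copied DNA, had the highest level per length of the 8 genes at both stages. Its WT levels were 319, 221, 286 and 424 CPM at S1 and 540, 455, 535 and 549 CPM at S3, and every S3 library lay above every S1 library in each genotype. In Het it went from 308 and 255 to 494 and 466 CPM, and in KO from 270 and 334 to 461 and 451 CPM. The log2 fold change in WT was 0.74 (SE 0.22, adjusted p = 0.0114). Leaving out WT embryo 0 or 5 ended the call (0.71 and 0.66, adjusted p = 0.0528 and 0.0777), and library totals turned the value to -0.24, while it stayed above the median gene by 0.87 and 0.86 on the respective scales.

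Of the oxidising enzymes, *Tet1* and *Tet2* fell, and the direction of *Tet3* depended on the scaling. Raw counts of *Tet1* in WT were 34, 90, 54 and 36 at S1 and 1, 0, 0 and 0 at S3. In Het they were 59 and 18 and then 1 and 2, and in KO 76 and 107 and then 1 and 0. *Tet1* was thus at or next to 0 in every S3 library. Summed over embryos and scaled with TMM, S1 exceeded S3 by a ratio of 115 in WT (exact 95% counting interval 20.4 to 4557), from 214 against 1 counts, by 11.7 in Het (3.84 to 57.8), from 77 against 3, and by 72.5 in KO (12.9 to 2881), from 183 against 1. The intervals cover counting error only, and with library totals the WT ratio was 224. The fitted change passed the test in WT (adjusted p = 3.50e-05), Het (0.000108) and KO (0.0028). *Tet1* met the count filter of these fits through its S1 libraries alone.

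*Tet2* counts in WT were 164, 286, 164 and 221 at S1 and 29, 19, 17 and 3 at S3. In Het they were 153 and 105 and then 5 and 20, and in KO 142 and 297 and then 22 and 16. Every S3 count lay below every S1 count. The log2 fold change was -2.75 in WT (SE 0.41, adjusted p = 0.00018), -2.23 in Het (SE 0.39) and -2.16 in KO (SE 0.47). *Tet3* levels in WT were 16.8, 24.01, 13.8 and 18.4 CPM at S1 and 23.0, 21.2, 22.4 and 22.3 CPM at S3, with embryo 1 higher at S1 and the other 3 higher at S3. In Het they were 15.1 and 9.36 CPM and then 17.3 and 17.7 CPM, and in KO 13.6 and 24.9 CPM and then 18.3 and 21.9 CPM. The change in WT did not pass the test (log2 fold change 0.31, SE 0.18, adjusted p = 0.167), nor did that in KO (0.05, SE 0.32, adjusted p = 0.904), and that in Het did (0.51, SE 0.19, adjusted p = 0.0133). With library totals these values were -0.67, -0.77 and -0.35. Relative to the median gene, *Tet3* in WT lay at 0.43 with TMM and at 0.43 with library totals. The WT value passed the test with upper-quartile scaling (0.61) and without embryo 1 (0.47, adjusted p = 0.0395), and as lower with library totals (adjusted p = 0.00854).

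*Tdg*, the glycosylase that removes the oxidised bases, fell by less. Its WT levels were 114, 95.1, 109 and 159 CPM at S1 and 68.0, 69.8, 55.3 and 61.0 CPM at S3. In Het they were 130 in both S1 libraries and 60.8 and 57.5 CPM at S3, and in KO 102 and 98.0 CPM and then 62.1 and 58.0 CPM. The stages did not overlap in any genotype. The log2 fold change was -0.90 in WT (SE 0.20, adjusted p = 0.00206), -1.14 in Het (SE 0.12) and -0.75 in KO (SE 0.15). The KO call was lost with upper-quartile scaling (-0.50, adjusted p = 0.0521). The processed pseudogenes *Tdg-ps* and *Tdg-ps2* held at most 98 counts in a library, and *Glt8d2*, which shares 367 exon bases with *Tdg* on the opposite strand, at most 13.

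**Figure D2:**
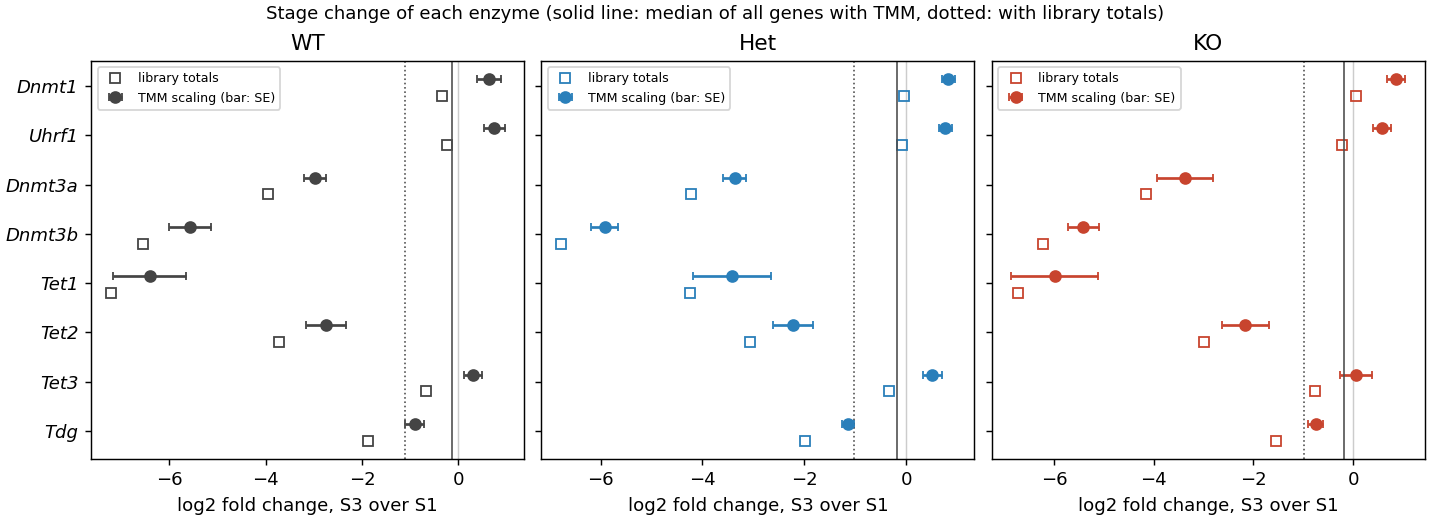
The log2 fold change of S3 over S1 is on the horizontal axis and the genes on the vertical axis, with a panel for each genotype; filled circles with SE bars use TMM scaling and open squares use library totals. Solid and dotted lines mark the median of all genes on the respective scales, and *Dnmt1*, *Uhrf1* and *Tet3* lie to the right of their line on both, although in WT they change sign between the scales, while *Dnmt3a*, *Dnmt3b*, *Tet1*, *Tet2* and *Tdg* lie to the left on both.

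Ratios between 2 genes within a library do not depend on any scaling between libraries. These 7 ratios were chosen after the effect of the scaling had been seen. Per length, *Dnmt1* made up 69.9% ± 5.83 of the counts of the 3 *Dnmt* genes in WT S1 and 99.1% ± 0.391 in WT S3 (n = 4 each). *Dnmt3b* went from 25.4% ± 5.05 to 0.446% ± 0.320 of the same sum, and *Dnmt3a* from 4.71% ± 1.25 to 0.504% ± 0.0822. In KO the share of *Dnmt1* lay between 60.1% and 65.6% at S1 and between 98.8% and 98.9% at S3. Among the *Tet* genes, *Tet3* held 73.3% ± 2.99 at WT S1 and 96.8% ± 1.82 at WT S3, *Tet2* 20.9% ± 1.31 and 3.17% ± 1.75, and *Tet1* 5.82% ± 2.01 and 0.0470% ± 0.0940. The KO share of *Tet3* was 71.3% to 74.2% at S1 and 92.9% to 96.3% at S3.

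The log2 ratio of *Dnmt3b* to *Dnmt1* in WT was -1.48 ± 0.40 at S1 and -8.02 ± 1.09 at S3, a difference of -6.55. That of *Dnmt3a* to *Dnmt1* was -3.93 ± 0.53 and -7.62 ± 0.23, a difference of -3.68. *Dnmt3b* also fell relative to *Dnmt3a* (difference -2.86). At S1 it exceeded *Dnmt3a* per length in all 4 WT libraries, and at S3 the linear ratio was 1.42, 1.03, 0.728 and 0.304 in WT embryos 0, 1, 5 and 8. The difference was -3.29 for *Tet2* relative to *Tet3* and -1.20 for *Tdg* relative to *Tet3*. None of these 5 ratios overlapped between the stages in WT, and each had an exact two-sided permutation p of 0.0286, the smallest that 4 against 4 libraries allow (adjusted over the 7 ratios, p = 0.04). The test took the libraries as unpaired, and 4 embryos paired by stage could not give a p below 0.125. The ratio of *Uhrf1* to *Dnmt1* (log2 2.07 ± 0.33 at S1 and 2.17 ± 0.14 at S3, exact permutation p = 0.571) and that of *Tet3* to *Dnmt1* (-3.99 ± 0.44 and -4.34 ± 0.22, exact permutation p = 0.257) overlapped.

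**Figure D3:**
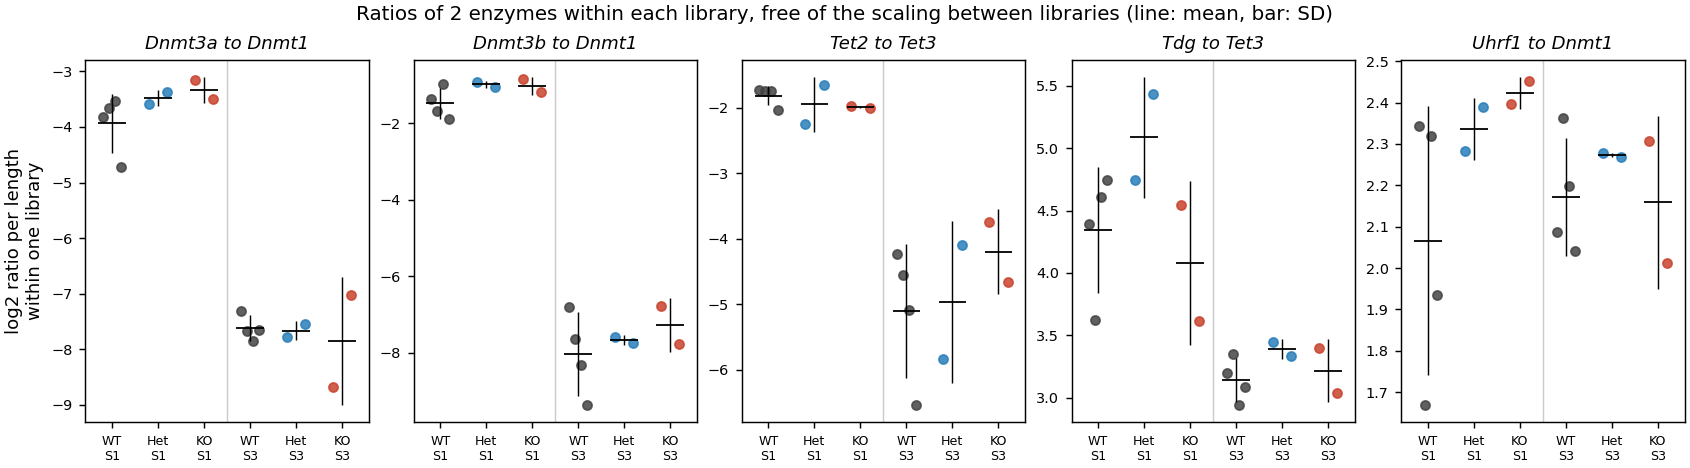
The vertical axes give the log2 ratio of 2 genes per exon length within one library, and the horizontal axes the 6 groups, with points for libraries, lines for means and bars for 1 SD. *Dnmt3a* and *Dnmt3b* relative to *Dnmt1*, and *Tet2* and *Tdg* relative to *Tet3*, are lower at S3 without overlap in WT, while *Uhrf1* relative to *Dnmt1* overlaps; each panel has its own vertical range.

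Levels of marker genes of other cell types differed between WT embryos at S1. The 9 neutrophil markers listed, among them *Mpo* and *Elane*, summed to 204, 1377, 1153 and 116 CPM in WT embryos 0, 1, 5 and 8 at S1, to 1563 to 1700 CPM in the Het and KO libraries at S1, and to at most 12.9 CPM at S3. *Dnmt3a* and *Tet1* were lower in embryos 0 and 8 than in embryos 1 and 5 at S1, and *Uhrf1* and *Tdg* were higher, while *Dnmt1*, *Dnmt3b*, *Tet2* and *Tet3* did not separate these embryos. The share of all genes that separate them was not determined, and 2 against 2 libraries cannot give an exact permutation p below 0.333. The split is thus not read as a trait of these genes. Embryos 0 and 8 are the 2 WT males and embryos 1 and 5 the 2 WT females. At S1 the hepatoblast markers summed to 286, 47.6, 61.0 and 253 CPM and the erythroid markers to 2291, 1477, 1659 and 2736 CPM in WT embryos 0, 1, 5 and 8, so sex and the levels of the neutrophil, hepatoblast and erythroid markers separated the same embryos and cannot be told apart in WT. The log2 difference of S3 minus S1 in embryos 0 and 8, where the neutrophil markers were lowest, was -2.46 and -2.67 for *Dnmt3a*, and in embryos 1 and 5 it was -3.66 and -3.29. For *Tet1* it was -4.09 and -4.44 in embryos 0 and 8 and -6.61 and -6.18 in embryos 1 and 5. The S3 counts of *Tet1* were 1, 0, 0 and 0 in embryos 0, 1, 5 and 8. A small constant was added to each count before taking log2, so these *Tet1* differences depend on that constant and on depth. For *Dnmt3b* the values were -4.41 and -7.21, then -5.60 and -6.31, and for *Tet2* -2.04 and -4.24, then -2.99 and -2.64, in the same order. The 4 early progenitor markers (*Kit*, *Gata2*, *Myb* and *Cd34*) summed to 158 to 225 CPM at S1 and 1.69 to 8.39 CPM at S3. Over all libraries the 10 hepatoblast markers summed to 21.6 to 286 CPM at S1 and 67.9 to 738 CPM at S3. The 13 macrophage markers summed to 31.6 to 71.1 CPM at S1, and at S3 to 49.6 to 103 CPM in WT, 70.7 and 48.2 CPM in Het and 36.5 and 23.8 CPM in KO, where 2 of the 12 tested (*Fcna* and *Marco*) were called lower than in WT. Their part in the levels of the 8 genes was not tested.

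Loss of *Nprl3* was not accompanied by a called change in any of the 8 genes. At S1, 0 of 8 passed the test in KO against WT, beside 0.00713% of all genes tested, and at S3, 0 of the 7 tested passed, beside 0.508%, *Tet1* being too low to test. At an unadjusted p under 0.05 the number was 0 at both stages, beside 2.56% of all genes at S1 and 8.59% at S3. DESeq2 called 0 as well, beside 0.314% and 2.19%. With sex as a covariate 0 of 8 genes were called at S1 and 0 of 7 at S3, while the share of all genes called rose to 0.15% at S1 and 4.42% at S3 with edgeR and to 1.22% and 6.18% with DESeq2. *Dnmt1* was at -0.42 (SE 0.31, adjusted p = 1) at S1 and at -0.14 (SE 0.20, adjusted p = 0.936) at S3, and *Uhrf1* at -0.05 (SE 0.29) and -0.14 (SE 0.14). For *Dnmt3a* the values were 0.23 (SE 0.19) and -0.09 (SE 0.52), and for *Dnmt3b* 0.07 (SE 0.22) and 0.34 (SE 0.68). At S3 the 2 KO libraries stood on either side of the WT range for *Dnmt3a*, at 0.863 and 3.31 CPM, so its value there was -1.36 without KO embryo 9 and 0.59 without KO embryo 2. The S3 library of KO embryo 9 held the highest S3 sums of early progenitor (8.39 CPM), neutrophil (12.9 CPM) and megakaryocyte markers (115 CPM). It also held the lowest S3 sum of macrophage markers (23.8 CPM), and the part of these cells was not tested. For *Dnmt3b* the same value was 1.05 without WT embryo 0.

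*Tet1* counts at S1 were at the upper end in KO, at 1.86 and 2.26 CPM against 0.740 to 2.27 CPM in WT (log2 fold change 0.63, SE 0.43, adjusted p = 1). *Tet2* was at -0.09 (SE 0.34) at S1 and 0.58 (SE 0.58) at S3, *Tet3* at 0.09 (SE 0.31) and -0.10 (SE 0.15), and *Tdg* at -0.25 (SE 0.25) and -0.03 (SE 0.14). With 2 KO embryos, differences of the size of these SE could not be told from 0, and few counts of *Dnmt3b* and *Tet2* were left to compare at S3. The stage change itself did not pass a test of difference between KO and WT in any of the 8 genes (interaction term, 0 of 8 called, beside 0.00748% of genes, adjusted p = 0.9999 for each and unadjusted p from 0.376 upwards), nor between Het and WT (0 of 8, beside 0%, unadjusted p from 0.0628 upwards). The *Tet1* term in Het was 3.03 (SE 1.48), and it rests on 3 counts in the Het S3 libraries and 1 in the WT S3 libraries.

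Het against WT gave 0 of 8 called at S1 and 0 of 7 at S3, beside 0% of all genes at both stages. DESeq2 also called 0 at either stage, beside 0.217% and 0.00852%. With sex as a covariate edgeR called 0 of the genes at both stages, but 2.76% of all genes at S1 and 17.7% at S3. At an unadjusted p under 0.05 there was 1 of 8 at S1, beside 4.2% of all genes, and 0 of 7 at S3, beside 3.12%. These comparisons share the WT libraries with those of the KO. The 1 gene was *Tet2*, with an unadjusted p of 0.0295 at S1 (log2 fold change -0.76, SE 0.28, adjusted p = 0.907) and Het at 3.20 and 3.02 CPM below all 4 WT libraries at 5.12, 7.21, 4.18 and 4.54 CPM. *Tet3* was at -0.58 (SE 0.29) at S1 and -0.28 (SE 0.13) at S3, *Dnmt1* at -0.44 (SE 0.31) and -0.16 (SE 0.18), and *Tet1* at -0.61 (SE 0.53) at S1, which was -1.38 without Het embryo 3 and -0.13 without Het embryo 4. *Tdg* was at 0.11 (SE 0.24) and -0.03 (SE 0.13), *Uhrf1* at -0.17 (SE 0.28) and -0.05 (SE 0.13), *Dnmt3a* at 0.06 (SE 0.19) and -0.23 (SE 0.33), and *Dnmt3b* at 0.10 (SE 0.24) and -0.12 (SE 0.65). At S3, *Tet2* was at -0.13 (SE 0.66), and at -1.38 without Het embryo 4. Both Het embryos were male, and in DESeq2 with sex as a covariate *Dnmt1* at S3 was at -0.36 with an adjusted p of 0.0493. That fit called 18.3% of all genes at S3, beside 1 of the 7, and 5.89% at S1, beside 0 of 8; in edgeR with sex the *Dnmt1* value was -0.33 with an adjusted p of 0.11.

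**Figure D4:**
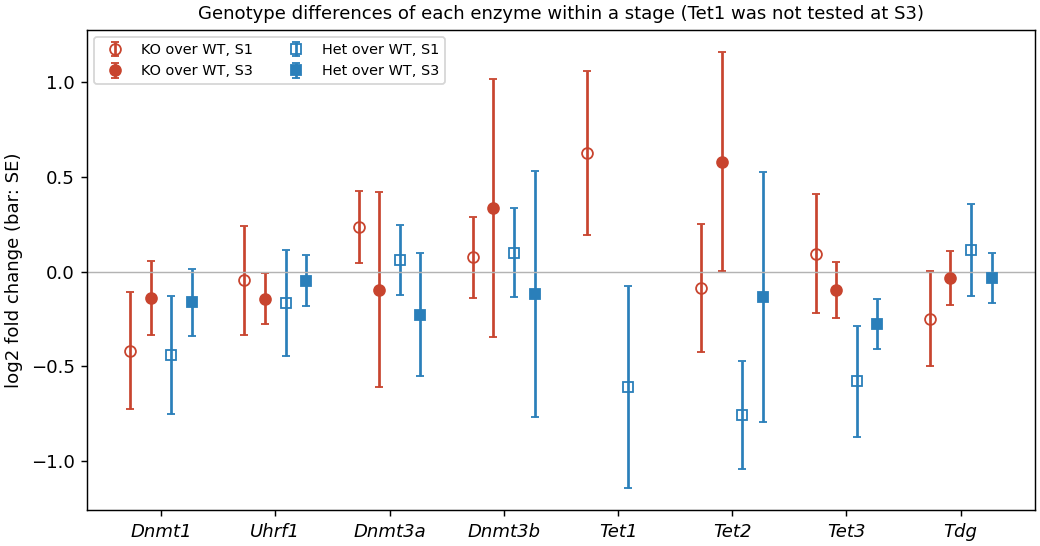
The vertical axis gives the log2 fold change of KO or Het over WT within a stage, with SE bars, for each gene on the horizontal axis; open symbols are S1 and filled symbols S3. None passed the test, and *Tet1* has no S3 value.

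The partners of the maintenance machinery moved apart between stages. Counts of the lists below stand beside 29.5% of all genes higher and 35.7% lower in WT with TMM, and 13.9% and 63.3% with library totals. Of 9 genes listed, 8 were tested in WT, 4 of which rose and 4 of which fell, with a median of 0.08 beside -0.13 over all genes; with library totals 1 rose and 4 fell. The falls held *Cdca7* at -2.46 and *Hells* at -1.34, which form a nucleosome remodeller needed for methylation of heterochromatin, and the *Cdca7* relative *Cdca7l* at -2.07. Of 31 DNA replication genes 18 rose, beside 29.5% of all genes, and 0 fell, beside 35.7%, with a median of 0.62. Those with the smallest p were *Rrm2* (2.32), a ribonucleotide reductase subunit, *Gins4* (1.52) and *Tyms* (1.46). On library totals 3 of the 31 rose and 12 fell, and their median lay 0.75 above that of all genes on both scales, beside 0.76 for *Dnmt1* and 0.87 for *Uhrf1* with TMM. For KO against WT 0 genes of either list were called at either stage, beside 0.00713% of all genes at S1 and 0.508% at S3.

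Of 13 partners of new methylation listed, 11 were tested in WT, 7 fell, beside 35.7% of all genes, and 1 rose, beside 29.5%, with a median of -1.16. With library totals all 11 fell, beside 63.3%. *Trim28* (-2.48), the corepressor of zinc finger proteins, *Ehmt2* (-3.39), an H3K9 methyltransferase, and *Dnmt3c* (-3.20) had the smallest p. *Dnmt3l*, the cofactor that stimulates the Dnmt3 enzymes in germ cells, held at most 5 counts in a library. Of 7 methyl-CpG readers tested, 3 rose and 3 fell in WT (with library totals 0 and 4), among them *Mbd3* at -1.07 and *Zbtb38* at -3.19.

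Downstream of Tdg, 5 of 14 base excision repair genes tested in WT rose, beside 29.5% of all genes, and 7 fell, beside 35.7%, with a median of -0.63. With library totals 2 rose and 10 fell, beside 13.9% and 63.3%, so the shares of rises with TMM and of falls with totals lay near those of all genes. The smallest p belonged to the rises of *Gadd45a* (4.77), a stress-induced adaptor of repair, and the glycosylase *Neil3* (3.51), and to the fall of the ligase *Lig3* (-2.82). Of 11 tested genes of Tet cofactor supply and Tet partners, 3 rose, beside 29.5% of all genes, and 5 fell, beside 35.7% (with library totals 0 and 9). The isocitrate dehydrogenase genes *Idh2* (-1.75) and *Idh3a* (-1.20) fell. Of 8 genes of methyl donor supply, 2 rose, beside 29.5% of all genes, and 3 fell, beside 35.7%, which are near shares (with library totals 0 and 6). *Mat2a* (-1.74), the catalytic subunit that makes S-adenosylmethionine, and *Ahcy* (-1.34), which clears its product, fell, while the regulatory subunit gene *Mat2b* rose by 0.76 with TMM. None of these lists held a called gene in KO against WT at either stage, beside 0.00713% of all genes at S1 and 0.508% at S3. The repair gene *Ung*, a uracil glycosylase, had the smallest p among them at S3 (log2 fold change 2.08, SE 0.46, adjusted p = 0.137).

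Genes known to be held silent by promoter methylation in somatic cells stayed near 0. The 18 germline genes listed summed to 0.740 to 1.84 CPM in every library, and 1 was tested in WT, *Ddx4*, which fell by 1.35. Of 28 imprinted genes listed, 27 were in the table and 20 were tested in WT, 3 rose, beside 29.5% of all genes, and 9 fell, beside 35.7%, with a median of -0.48 (with library totals 0 and 11). *Peg12* (-4.21), *Airn* (-2.17), the antisense transcript of the *Igf2r* domain, and *Grb10* (-1.33), a growth inhibitor, fell. In KO against WT 0 of 20 imprinted genes were called at S1 and 0 of 16 at S3, beside 0.00713% and 0.508% of all genes, with medians of -0.16 and 0.06 beside -0.0017 and -0.0038 over all genes.

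Some genes followed the 8 closely across the 16 libraries. Over 13248 genes, the Pearson correlations of log2 CPM with *Dnmt1* were highest for *Abcb4* (0.987), *Fancd2* (0.982), a Fanconi anaemia repair gene, and *Nsd2* (0.981), an H3K36 methyltransferase. Within the 8 S1 libraries these were 0.986, 0.990 and 0.963, and within the 8 S3 libraries 0.889, 0.865 and 0.898. The genes most like *Uhrf1* were *Abcg4* (0.988), *Casp9* (0.985) and the condensin subunit gene *Ncapd2* (0.985). For *Dnmt3b* they were *Usp11* (0.995), *Ddx10* (0.994) and *Entpd6* (0.993), but within S1 the value for *Ddx10* was 0.194. For *Dnmt3a* they were *Dcbld1* (0.992), *Panx1* (0.990) and *Smurf1* (0.989), the last at 0.292 within S1. The libraries share stage, embryo and scaling, and correlations over 16 libraries include any difference between stages. Within S1 some pairs stayed as high, such as *Uhrf1* with *Ncapd2* (0.988), and others, such as *Dnmt3b* with *Ddx10*, did not.

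*Tet1* was most like *Spn* (0.974), which encodes the leukocyte surface protein CD43, *Kank3* (0.970) and *Sash3* (0.965), and *Tet2* most like *Utp25* (0.967), *Zfp607a* (0.966) and *Styx* (0.966). *Tet3* had the loosest likeness, with *Gm37558* (0.935), *Csnk1g1* (0.934) and *Marf1* (0.923). *Tdg* was most like *Ubqln4* (0.980), the chromatin remodeller gene *Chd1l* (0.980) and *Naa40* (0.979). Among the 8 genes, *Dnmt1* and *Uhrf1* correlated at 0.903 over 16 libraries, 0.665 within S1 and 0.836 within S3. *Dnmt3a* and *Dnmt3b* correlated at 0.948 over 16 libraries but at -0.0003 within S1 and -0.168 within S3. *Tet2* and *Tet3* correlated at 0.899 within S1 and at 0.0105 within S3.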

How the data were processed

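Poly(A) RNA was amplified with SMARTer chemistry and sequenced from S1 and S3 erythroblasts of 8 E13.5 embryos. Per the labels, the authors mapped reads to mm39 with STAR 2.7.9 and counted read pairs per gene with featureCounts 1.6.4 (Ensembl 104). Strand was ignored, and multi-mapped pairs and pairs over more than 1 gene were not counted. They deposited raw counts of 55416 genes, of which 54749 had a symbol in GENCODE mouse release 39. The table has 4 library columns that match no sample used here, which were left out.

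TMM scaling and the quasi-likelihood test of edgeR 4.0.16 (functions glmQLFit and glmQLFTest, R 4.3.3) were applied to genes whose normalized counts averaged above 10 in the comparison, with Benjamini-Hochberg adjustment and a threshold of 0.05. The tests were S3 against S1 in each genotype, KO and Het against WT in each stage, and the interactions. DESeq2 1.42.0, other scalings and filters, sex, a replicate block and fits leaving out each embryo were alternatives. The study's methods name DESeq2. Here edgeR was the main test, and DESeq2, which takes raw counts as well, was an alternative. Same-numbered libraries come from one embryo, and their deviations from the group means correlated at 0.0738 to 0.271 in WT, 0.0346 in Het and 0.369 in KO. RPKM used the deposited exon lengths. Start regions came from GRCm39 and GENCODE release 39, the build of the files. The fits were also run on simulated counts as a check of the code, and that outcome is not given here. Depth was 20666044 to 37609502 read pairs per library, and counting error was not compared with the spread between embryos.

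The 8 genes and the gene lists were chosen with earlier results of these data known. Besides the 8 genes, those named were the 3 with the smallest p in S3 against S1 in WT and the 2 in KO against WT at S3 in each list, and the 3 most correlated with each gene. Some genes that this would name are not reported here. *Dnmt3l*, the stem cell markers and the near copies were named after their values were seen.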

Additional observations from a re-analysis of the deposited data

Results flagged for a closer look

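In 2 of the 16 sets of 4 WT libraries (8 genes at 2 stages), 1 library stood apart from the other 3 by more than Dixon's 95% critical value, and chance flags about 1 in 20 such sets. The S3 library of WT embryo 1 had the lowest *Uhrf1* level of the WT S3 group, 454.7 CPM (next 534.8 CPM, gap over range 0.853). The S3 library of WT embryo 0 held the single *Tet1* read of the group, 0.0423 CPM, where the other 3 held 0; with 1 read in 4 libraries the gap equals the range whichever library holds it, so this set says nothing of that library and cannot be read against the chance rate. In no gene did every WT embryo move one way between stages and every Het or KO embryo the other.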

How the results depend on the processing

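The 5 falls between stages were called in WT, Het and KO under every scaling, filter, tool and covariate run, except *Tdg* in KO with upper-quartile scaling. Library totals in place of TMM called 5 of 8 genes in Het, and turned *Dnmt1*, *Uhrf1* and *Tet3* to -0.35, -0.24 and -0.67 in WT and to -0.0387, -0.0943 and -0.35 in Het, and *Uhrf1* and *Tet3* to -0.23 and -0.77 in KO, where *Dnmt1* (0.05) lost its call. *Tet3* in Het was not called with all 16 libraries in the fit (0.52). Within stages, 1 value was called under any alternative, *Dnmt1* in Het against WT at S3 in DESeq2 with sex (1 of 7 genes, beside 18.3% of all genes). Library totals turned *Dnmt3a* and *Tdg* in KO against WT at S3 to 0.0087 and 0.0537 and *Dnmt3a* in Het against WT at S1 to -0.017. Sex as a covariate turned *Tdg* in Het against WT at S1 to -0.11 with edgeR and -0.12 with DESeq2. With the embryo as a replicate block 7 genes were called in WT, 8 in Het and 7 in KO, and 0 in both interactions, beside 68.9%, 77.5%, 69%, 0.00748% (KO) and 0% (Het) of all genes, so the block changed no count of calls. Of 548 log2 fold changes under settings other than leaving out an embryo, 530 kept their direction and side of the threshold, and of 211 with 1 embryo left out, 185 did. The WT stage comparison called 5 to 8 genes with 1 embryo left out, where the share of all genes called ran from 54.8% to 65.1%. Uncalled values whose sign turned on 1 embryo ran, at S1, in KO against WT from -0.0202 to 0.17 for *Dnmt3b*, -0.59 to 0.28 for *Tet2*, -0.42 to 0.47 for *Tet3*, -0.22 to 0.16 for *Uhrf1*, and in Het against WT from -0.0276 to 0.14 for *Dnmt3a*, -0.18 to 0.33 for *Dnmt3b*, -0.31 to 0.0509 for *Uhrf1*. At S3 they ran in KO against WT from -0.26 to 0.0186 for *Dnmt1*, -1.36 to 0.59 for *Dnmt3a*, -0.0364 to 1.05 for *Dnmt3b*, -0.10 to 0.0292 for *Tdg*, -0.22 to 0.0579 for *Tet3*, and in Het against WT from -0.0911 to 0.0081 for *Tdg*, -1.38 to 0.51 for *Tet2*. Why these signs turned was not tested. The Het stage comparison with sex, and the Het and KO stage comparisons with 1 embryo left out, were not run, since Het holds 1 sex and no residual degrees of freedom remained. Depth limits *Tet1* at S3, with 0 to 2 counts per library.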
